A study of Mus musculus with 19 samples.

Results

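Transcripts of 7 receptors for colony-stimulating factors and related growth factors, Csf1r, Csf2ra, Csf2rb, Csf2rb2, Csf3r, Flt3 and Kit, were measured in mouse Kupffer cells (KCs), the resident macrophages of the liver. The genes were chosen by name, all 7 had a probeset of a single gene symbol on the array, and they are 7 of 19938 genes measured in this way. Clec4F+ KCs had been sorted from digested livers of C57Bl/6 mice of 6 to 12 weeks, and each of 19 samples was hybridised to 1 Affymetrix Mouse Gene 1.0 ST array. Monocyte-derived KCs (mo-KCs) came from KC-DTR mice that had received a single dose of 50 ng diphtheria toxin (DT), with 3 arrays from day 15 and 5 from day 30. The KC-DTR allele is a knock-in of a diphtheria toxin receptor cassette into Clec4f, so DT removes the cells that express Clec4f and monocytes refill the niche. Embryonic KCs (em-KCs) were on 11 arrays, of which 3 were from untreated KC-DTR mice, 1 was from an untreated littermate without the allele, 2 each were from littermates 15 and 30 days after DT, and 3 were from WT mice. No em-KC array came from a DT-treated mouse that carried the receptor, so the origin of the cells and exposure to DT in a mouse with the receptor cannot be told apart in any comparison of mo-KCs with em-KCs. The sort on Clec4F limits all samples to cells that already show this KC protein. By the labels, arrays within a group are biological replicates, and which mice or litters they stand for is not given.

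Growth factor receptors of this group keep myeloid cells alive and steer their development. Csf1r, Kit and Flt3 encode related receptor tyrosine kinases, which pair and phosphorylate each other when their ligand binds. Csf1r binds CSF-1 and interleukin 34 and is required for most tissue macrophages, KCs among them, whereas Kit and Flt3 are best known from blood stem and progenitor cells, Kit also from mast cells and Flt3 also from dendritic cells. The products of Csf2ra, Csf2rb, Csf2rb2 and Csf3r are cytokine receptors without a kinase of their own that signal through Janus kinases. Csf2ra is the chain specific for GM-CSF, Csf2rb is the beta chain that it shares with the receptors for interleukin 3 and interleukin 5, Csf2rb2 is a second mouse beta chain that serves the interleukin 3 receptor, and Csf3r binds G-CSF and is most abundant on neutrophils.

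In the GRCm38.p6 assembly, Csf2rb (chr15:78325800-78351001) and Csf2rb2 (chr15:78282507-78305721) are neighbouring genes of similar sequence, so some probes of one may also bind transcripts of the other. Kit (chr5:75574987-75656722) and Flt3 (chr5:147330741-147400489) share a chromosome. Csf3r lies at chr4:126023441-126044975 and Csf2ra at chr19:61217191-61228461. RefSeq promoter windows of GRCm38.p6, which run from 250 bases before to 50 bases after a transcription start, were at hand for 5 of the 7 genes. They were searched on both strands for GAGGAAG, a core sequence that the myeloid transcription factor PU.1 (gene Spi1) can bind, chosen after the windows were read. It was found in 5 of the 6 windows of these genes (those of Csf2ra, Csf2rb2 and Csf3r and both of Kit). Across all genes 13.6% of 32851 windows held it. Because the letters were picked from windows already read, the count for the receptors follows from that choice and cannot be compared with the share over all windows. The windows of 3 receptor genes that were lower in some day 30 mo-KC arrays, as described further on, are shown 5′ to 3′ in the direction of the gene, with the matches in capitals. Csf2rb2 is shown from chr15:78305672-78305971 on the minus strand, where both matches lie on the opposite strand and read CTTCCTC, Csf2ra from chr19:61228369-61228668 on the minus strand, where 2 matches overlap by 1 base, and Csf3r from chr4:126024409-126024708 on the plus strand, with 1 match.
Csf2rb2: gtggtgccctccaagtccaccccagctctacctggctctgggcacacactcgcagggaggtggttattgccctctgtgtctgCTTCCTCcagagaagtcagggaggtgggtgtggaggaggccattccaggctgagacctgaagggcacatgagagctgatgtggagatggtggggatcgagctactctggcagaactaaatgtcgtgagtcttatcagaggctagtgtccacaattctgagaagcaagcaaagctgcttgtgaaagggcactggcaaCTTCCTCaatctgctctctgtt
Csf2ra: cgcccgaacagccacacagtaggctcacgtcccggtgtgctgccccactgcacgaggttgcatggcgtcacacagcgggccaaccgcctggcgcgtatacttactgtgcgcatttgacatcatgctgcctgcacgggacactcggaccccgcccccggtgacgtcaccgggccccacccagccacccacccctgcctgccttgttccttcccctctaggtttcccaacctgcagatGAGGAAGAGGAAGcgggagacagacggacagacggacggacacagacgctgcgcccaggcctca
Csf3r: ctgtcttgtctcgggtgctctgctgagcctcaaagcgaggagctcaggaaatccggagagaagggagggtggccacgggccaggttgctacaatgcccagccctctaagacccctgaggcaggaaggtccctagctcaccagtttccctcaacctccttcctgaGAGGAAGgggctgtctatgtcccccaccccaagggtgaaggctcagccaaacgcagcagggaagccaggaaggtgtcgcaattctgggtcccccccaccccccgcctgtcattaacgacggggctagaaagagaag
A match is only a string of letters in the window, and binding was not measured.

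The authors deposited log2 expression values, and all levels and differences below are on that scale, where a difference of 1 is 2-fold. All 3 classes of cells (day 15 mo-KC, day 30 mo-KC and em-KC) were fitted at once across all 19938 genes with limma, a linear model that shares information on the spread between genes, and a gene was called at a Benjamini-Hochberg adjusted p under 0.05. The arrays fell into 2 sets by their sex-linked genes. In 6 arrays, day 30 mo-KC replicates 3 to 5 and the 3 WT em-KC replicates, Xist was 8.72 to 9.51 and the mean of 3 Y-linked genes 3.97 to 4.18. In the other 13 arrays Xist was 4.07 to 4.53 and the Y-linked mean 7.33 to 7.83. Mice of both sexes were used, but no source used here gives the sex or the array batch of a single sample, so results for the receptors are also given within each set. Of 14 KC markers, 4 fell at day 15 and 6 at day 30, and Vsig4 and Cd5l, which were not called, were high in every sample, with lowest values of 12.71 and 12.52 in day 15 mo-KCs, 12.75 and 12.32 in day 30 mo-KCs, and 12.82 and 12.59 in em-KCs. Timd4, a phagocytic receptor of em-KCs, fell by 3.75 in day 15 mo-KCs and by 2.28 in day 30 mo-KCs (limma adjusted p = 4.0e-16 and 2.2e-13). Cd163, a scavenger receptor gene for haemoglobin, fell by 1.86 and 1.97 (limma adjusted p = 5.1e-04 and 2.2e-05). Clec4f, the gene of the sort marker, had 12.18, 12.21 and 12.16 in day 15 mo-KCs and 12.29, 11.24, 10.95, 10.66 and 11.10 in day 30 mo-KCs, against 12.17 to 12.67 in em-KCs. It fell by 1.26 at day 30 (limma adjusted p = 1.6e-04), with replicates 2 to 5 below every em-KC array, and differed by -0.32 at day 15 (limma adjusted p = 0.915).

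Csf1r (chr18:61105572-61131139 in GRCm38.p6) was high in every sample and did not differ between day 15 mo-KCs and em-KCs beyond their spread. The 3 day 15 mo-KC arrays had 12.44, 12.51 and 12.47 and the 5 day 30 mo-KC arrays 12.47, 12.57, 12.15, 12.15 and 11.95, against a lowest value of 12.38, a median of 12.50 and a highest of 12.62 in the 11 em-KC arrays. All day 15 arrays and day 30 replicates 1 and 2 lay within the em-KC range, and day 30 replicates 3 to 5 lay below it. The difference from em-KCs was -0.04 at day 15 (95% confidence interval -0.24 to 0.17, limma adjusted p = 0.983) and -0.25 at day 30 (95% confidence interval -0.42 to -0.08, limma adjusted p = 0.177). Both intervals lay within 1.5-fold in either direction, and the day 30 interval held only lower values. The day 30 value averages 2 sets of arrays that differed, as described further on. The Csf1r difference was -0.43 within the 6 arrays and 0.01 within the 13.

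Among the chains of the receptors for GM-CSF and interleukin 3, Csf2rb2 had the largest difference at day 30. It had 8.75, 8.69 and 8.81 in day 15 mo-KCs and 8.73, 8.83, 8.45, 8.10 and 7.70 in day 30 mo-KCs, against 8.59, 8.76 and 9.62 as the lowest, median and highest of em-KCs. As for Csf1r, day 30 replicates 3 to 5 alone fell below the em-KC range. The difference was -0.17 at day 15 (95% confidence interval -0.60 to 0.26, limma adjusted p = 0.965) and -0.56 at day 30, which is 1.47-fold lower (95% confidence interval -0.92 to -0.20, limma adjusted p = 0.148). Csf2rb, the shared beta chain, had 9.81, 9.63 and 9.79 in day 15 mo-KCs and 9.51, 9.72, 9.75, 9.26 and 9.04 in day 30 mo-KCs, against 9.46, 9.74 and 10.27 as the lowest, median and highest of em-KCs. Only day 30 replicates 4 and 5 lay below the em-KC range. Its difference was -0.01 at day 15 (95% confidence interval -0.31 to 0.29) and -0.30 at day 30 (95% confidence interval -0.55 to -0.05, limma adjusted p = 0.282). Csf2ra, the chain that gives the receptor its specificity for GM-CSF, had 9.11, 9.06 and 9.23 in day 15 mo-KCs and 9.30, 9.35, 9.20, 9.19 and 8.36 in day 30 mo-KCs, against 8.79, 9.25 and 9.71 as the lowest, median and highest of em-KCs. Day 30 replicate 5 stood apart below all other arrays, and the other 7 mo-KC arrays lay within the em-KC range. Its difference was -0.09 at day 15 and -0.14 at day 30 (95% confidence intervals -0.49 to 0.31 and -0.47 to 0.19, limma adjusted p = 0.977 and 0.764), and without replicate 5 the day 30 difference was 0.04.

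Csf3r, the G-CSF receptor gene, had 8.12, 8.26 and 8.18 in day 15 mo-KCs and 8.06, 8.38, 7.76, 7.80 and 7.92 in day 30 mo-KCs, against 8.02, 8.20 and 8.48 as the lowest, median and highest of em-KCs. Day 30 replicates 3 to 5 again lay below the em-KC range and replicates 1 and 2 within it. The share of all genes with this pattern is not given here. The Csf3r difference was -0.03 at day 15 (95% confidence interval -0.25 to 0.20, limma adjusted p = 0.988) and -0.23 at day 30 (95% confidence interval -0.42 to -0.04, limma adjusted p = 0.269). The neutrophil markers, read because G-CSF receptor marks that cell, were called at neither day (0 of 12, with 1 and 4 at an unadjusted p under 0.05), with a mean over the list of 5.11 to 5.40 at day 15 and 5.18 to 5.45 at day 30, against 5.04 to 5.39 in the colony em-KCs and 5.18 to 5.31 in the WT em-KCs. A list of 5 eosinophil markers had means of 5.81 to 6.06 at day 15 and 5.63 to 5.87 at day 30. Its means in em-KCs were lower, at 5.22 to 5.60. Of these markers Ccr3 had the widest range over the arrays, 6.44 to 10.46. Siglecf ran from 6.47 to 7.06, Prg2 from 4.40 to 5.09, Epx from 4.42 to 5.11 and Il5ra from 3.21 to 3.84. The sort had taken cells negative for SiglecF, Ly6G and Ly6C. The part of Ccr3 in the list means was not tested.

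Of the receptors best known from progenitors, Flt3 was dim and Kit was variable. Flt3 had 5.36, 4.98 and 5.12 in day 15 mo-KCs and 5.32, 4.89, 5.22, 4.93 and 5.33 in day 30 mo-KCs, against 5.09, 5.38 and 5.54 as the lowest, median and highest of em-KCs. All 19 values lay below the median of their arrays, which was 5.72 to 5.81, so little Flt3 signal was there to compare. The difference was -0.19 at day 15 (95% confidence interval -0.43 to 0.04) and -0.21 at day 30 (95% confidence interval -0.40 to -0.01, limma adjusted p = 0.347), and 1 of 3 day 15 arrays and 2 of 5 day 30 arrays lay below the em-KC range. Kit had 7.83, 7.56 and 7.31 in day 15 mo-KCs and 7.74, 7.80, 7.27, 6.94 and 7.68 in day 30 mo-KCs, against 6.06, 7.35 and 8.34 as the lowest, median and highest of em-KCs. It was the most variable of the receptors, with a pooled SD within conditions of 0.54 beside 0.15 to 0.32 for the other 6, and both extremes were WT em-KC arrays. Its difference was 0.21 at day 15 and 0.12 at day 30, with 95% confidence intervals of -0.39 to 0.81 and -0.37 to 0.62 that do not exclude a difference beyond 1.5-fold. Markers of mast cells, basophils and progenitors, the cells in which Kit is best known, were called at neither day (0 of 10, and 0 at an unadjusted p under 0.05), and their list mean was 4.49 to 4.57 at day 15 and 4.50 to 4.72 at day 30, against 4.48 to 4.69 in em-KCs. The mast cell genes Cpa3 and Ms4a2 did not exceed 4.32 and 4.18 in any array.

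**Figure D1:**
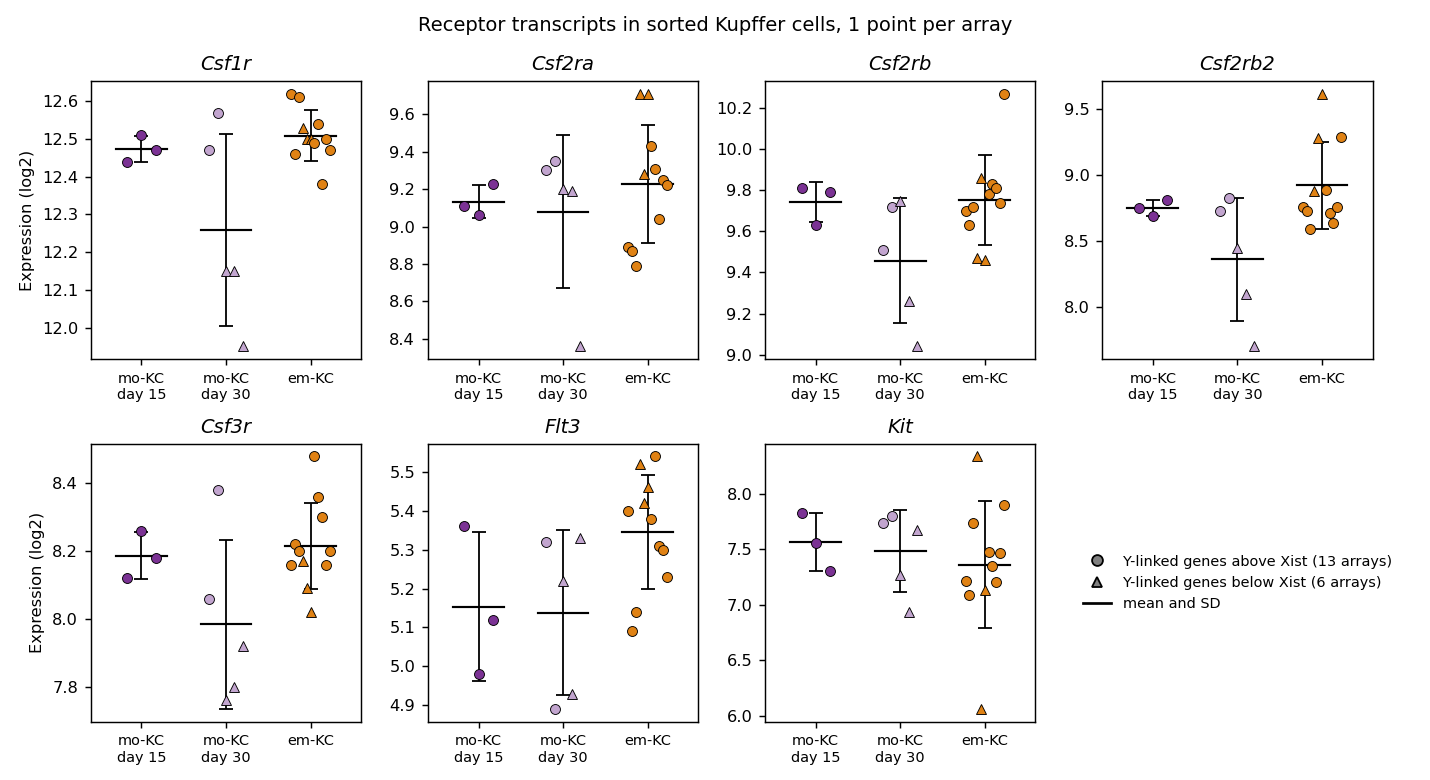
Expression (vertical axes, log2) of each receptor gene in day 15 mo-KCs (n = 3), day 30 mo-KCs (n = 5) and em-KCs (n = 11), with 1 point per array and the mean and SD of each group. Triangles mark the 6 arrays in which Y-linked genes lie below Xist. For Csf1r, Csf2rb2 and Csf3r the 3 triangles of the day 30 group lie below every em-KC array, and the day 15 points lie within the em-KC range. The share of all genes with this pattern is not given here.

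None of the 7 receptors was called at either day, nor by the methods' t-test after the same adjustment. At day 30 the background was 0.787% of all genes called, and 5 of the 7 receptors (Csf1r, Csf2rb, Csf2rb2, Csf3r and Flt3) had an unadjusted p under 0.05, all with lower values, beside 6.90% of all genes with lower values at that p. At day 15 the background was 0.502%, and no receptor had an unadjusted p under 0.05, as 6.05% of all genes did. With both days averaged 1.19% of all genes and no receptor were called, with 2 receptors and 10.6% of all genes at an unadjusted p under 0.05. The median difference of the 7 receptors was -0.04 at day 15 and -0.23 at day 30, beside -0.01 and -0.02 over all genes, and both comparisons used the same em-KC arrays. At each day the 95% confidence interval lay within 1.5-fold for 5 of the 7 receptors, the exceptions being Csf2rb2 and Kit, beside 87.8% of all genes at day 15 and 91.1% at day 30. Without day 30 replicate 2, Csf1r (-0.33, limma adjusted p = 0.0345) and Csf3r (-0.33, limma adjusted p = 0.045) were called at day 30, and over all alternatives their adjusted p ran from 0.0345 to 0.991 and from 0.045 to 0.98. Between the 2 days of mo-KCs, day 30 minus day 15 ranged from -0.39 for Csf2rb2 to -0.02 for Flt3 and no receptor was called (limma adjusted p of 0.92 or more, and no unadjusted p under 0.05), where 0.0201% of all genes were.

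The differences at day 30 were not the same in both sets of arrays. Within the 6 arrays, day 30 mo-KC replicates 3 to 5 had 8.45, 8.10 and 7.70 for Csf2rb2, against 8.88, 9.28 and 9.62 in the WT em-KC replicates, with no overlap. The difference was -1.17, or 2.25-fold lower (s.e., the standard error, 0.23, 95% confidence interval -1.71 to -0.64, limma adjusted p = 0.0324), which was the only receptor call within this set, where 4.15% of all genes were called. Leaving out any 1 of these arrays other than WT em-KC replicate 1 ended that call. The same contrast was also taken in a fit of all 19 arrays as 5 groups with 1 shared spread, chosen after seeing the data, which assumes that the 6 arrays vary as the others do. It called 3 receptors as lower, Csf2rb2 (-1.17, s.e. 0.19, limma adjusted p = 2.8e-04), Csf1r (-0.43, s.e. 0.09, limma adjusted p = 0.00193) and Csf2ra (-0.65, s.e. 0.20, limma adjusted p = 0.0277), where 17.3% of all genes were called. Leaving out each of the 19 arrays in turn kept the Csf2rb2 and Csf1r calls, while that of Csf2ra ended without day 30 replicate 5, WT em-KC replicate 1 or WT em-KC replicate 3 (limma adjusted p = 0.174, 0.0872 and 0.0907). Within the 13 arrays, day 30 replicates 1 and 2 had 8.73 and 8.83 and the 8 colony em-KC arrays (KC-DTR mice and their littermates) 8.59 to 9.29. The difference was -0.01 (95% confidence interval -0.30 to 0.27), and no receptor was called within this set (lowest unadjusted p = 0.0774, for Kit), where 0.326% of all genes were. Csf1r followed the same course, with a difference of -0.43 within the 6 arrays (limma adjusted p = 0.083) and of 0.01 within the 13 (95% confidence interval -0.16 to 0.19). For Csf2ra, the difference was -0.65 within the 6 arrays (95% confidence interval -1.19 to -0.10, limma adjusted p = 0.165) and 0.23 within the 13 (95% confidence interval -0.08 to 0.53).

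The dependence on the set was tested as an interaction, a test chosen after seeing the data, in which 4.72% of all genes were called. The day 30 difference was lower in the 6 arrays than in the 13 by 1.16 for Csf2rb2 (s.e. 0.26, limma adjusted p = 0.0144) and by 0.44 for Csf1r (s.e. 0.12, limma adjusted p = 0.0381). Csf2ra had -0.87 (limma adjusted p = 0.0739), and the other 4 receptors lay between -0.22 and -0.05 with adjusted p of 0.431 or more. Leaving out day 30 replicate 1 or replicate 2, which leaves 1 day 30 mo-KC array in that set, ended both calls. The interaction was then -1.208 and -1.111 for Csf2rb2 and -0.493 and -0.387 for Csf1r. The Csf1r call also ended without WT em-KC replicate 1 or 3, day 30 replicate 5, untreated KC-DTR em-KC replicate 2, the untreated littermate, or littermate replicate 1 of day 15 or replicate 2 of day 30 after DT, at adjusted p of 0.0506 to 0.0945. Day 30 replicates 3 to 5 and the WT em-KCs also differ in genotype and DT, and whether they share a colony is not given. None of this can be told apart from the set in this comparison. Within the day 30 mo-KCs alone, which share genotype and treatment by the labels, replicates 3 to 5 were set against replicates 1 and 2 in the fit of 5 groups, a split made by the sex-linked genes and also chosen after seeing the data. Csf1r was lower by 0.44 (s.e. 0.10, limma adjusted p = 0.00781), Csf2rb2 by 0.70 (s.e. 0.21, limma adjusted p = 0.0455) and Csf3r by 0.39 (s.e. 0.12, limma adjusted p = 0.0419), so 3 of 7 receptors were called where 8.37% of all genes were. Leaving out each of the 19 arrays in turn ended the Csf1r call in 1 case, without day 30 replicate 2 (limma adjusted p = 0.118), the Csf3r call in 5 and the Csf2rb2 call in 13, with adjusted p of up to 0.466 and 0.251, both without day 30 replicate 2.

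**Figure D2:**
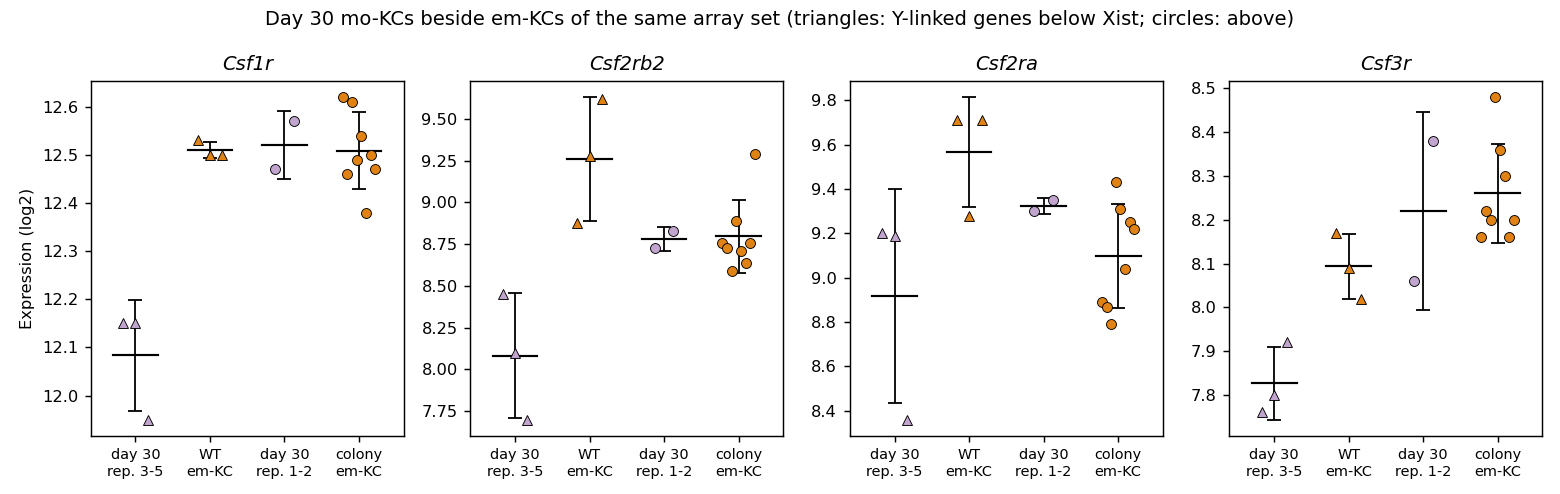
Expression (vertical axes, log2) of Csf1r, Csf2rb2, Csf2ra and Csf3r in day 30 mo-KC replicates 3 to 5 (n = 3), WT em-KCs (n = 3), day 30 mo-KC replicates 1 and 2 (n = 2) and the KC-DTR colony em-KCs (n = 8), with 1 point per array, the mean and SD. Triangles are the 6 arrays with Y-linked genes below Xist and circles the other 13. Csf1r and Csf2rb2 of day 30 mo-KCs lie below em-KCs among the triangles and among them for the circles.

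Other transcripts also differed between the array sets, in some lists among the day 30 mo-KCs only. Immediate-early genes, which respond within minutes to handling of cells, had list means of 7.89 to 8.55 in day 30 replicates 3 to 5 and of 10.29 to 10.65 in replicates 1 and 2, against 8.15 to 8.20 in WT em-KCs and 9.65 to 10.53 in the colony em-KCs. Hepatocyte markers had list means of 8.49 to 9.39 in day 30 replicates 3 to 5 and of 7.93 to 8.01 in replicates 1 and 2, against 10.00 to 10.31 in WT em-KCs and 8.15 to 9.20 in the colony em-KCs. Sinusoidal endothelial markers had list means of 9.54 to 9.85 in day 30 replicates 3 to 5 and of 10.22 to 10.33 in replicates 1 and 2, against 9.49 to 10.24 in WT em-KCs and 9.77 to 10.53 in the colony em-KCs. KC markers had 10.82 to 10.95 in day 30 replicates 3 to 5 and 11.16 to 11.19 in replicates 1 and 2, against 11.55 to 11.64 in WT em-KCs and 11.53 to 11.70 in the colony em-KCs. In the same way the lists of related receptors, signalling genes and transcription factors, described further on, were lower in day 30 replicates 3 to 5 (7.43 to 7.53, 8.37 to 8.48 and 7.78 to 7.88) than in replicates 1 and 2 (7.71 to 7.73, 8.72 to 8.74 and 8.08 to 8.09). They had 7.61 to 7.78, 8.48 to 8.52 and 7.90 to 7.92 in WT em-KCs, against 7.67 to 7.82, 8.63 to 8.73 and 7.94 to 8.12 in the colony em-KCs, so the lower values of day 30 replicates 3 to 5 were not particular to the 7 receptors. Within the 6 arrays, 8 of 11 hepatocyte markers were lower in the mo-KCs than in WT em-KCs, as Csf2rb2 was, and 0 of 10 immediate-early genes were called (1 at an unadjusted p under 0.05). The part of these transcripts, of sex and of array batch in the receptor differences was not tested. In sorted bulk samples, fewer cells that express a gene and less RNA per cell cannot be told apart.

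**Figure D3:**
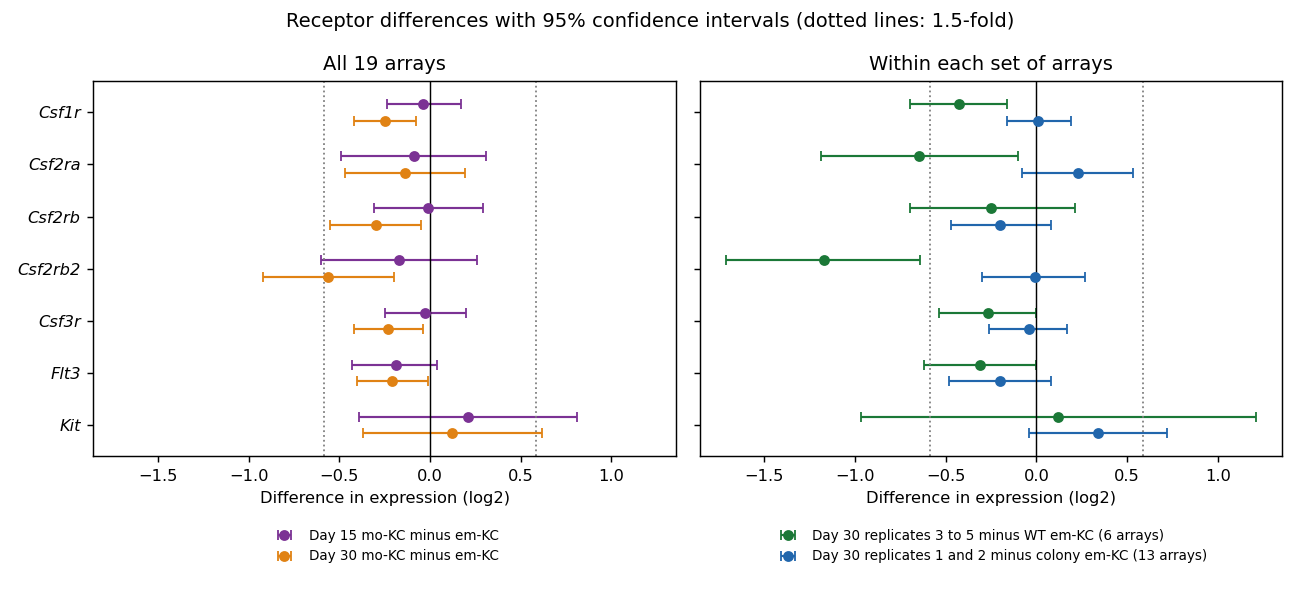
Differences in expression (horizontal axes, log2) of the 7 receptors with 95% confidence intervals from limma. The left panel gives day 15 and day 30 mo-KCs minus em-KCs over 19 arrays, and the right panel day 30 mo-KCs minus em-KCs within the sets of 6 and 13 arrays, with dotted lines at 1.5-fold. On the right Csf2rb2 lies at -1.17 in the 6 arrays and at -0.01 in the 13.

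Across the 7 conditions the means ran from 12.26 to 12.56 for Csf1r, from 8.85 to 9.56 for Csf2ra, from 9.45 to 10.27 for Csf2rb, from 8.36 to 9.29 for Csf2rb2, from 7.98 to 8.42 for Csf3r, from 5.14 to 5.47 for Flt3 and from 7.18 to 7.90 for Kit. Day 30 mo-KCs had the lowest mean for 5 receptors, Csf1r, Csf2rb, Csf2rb2, Csf3r and Flt3, with 12.26, 9.45, 8.36, 7.98 and 5.14, and each of these overlapped with the next lowest condition. For Kit the WT em-KCs had the lowest mean (7.18) and for Csf2ra the untreated KC-DTR em-KCs (8.85). The untreated littermate, a single array, had the highest mean for Csf2rb (10.27), Csf2rb2 (9.29) and Kit (7.90), and it did not overlap with the next condition for Csf2rb and Kit. Csf2ra in untreated KC-DTR em-KCs was 8.89, 8.87 and 8.79, below all 5 littermate arrays at 9.04 to 9.43. This comparison sets mice with the knock-in allele against littermates without it, but only 1 littermate array was untreated, with Csf2ra at 9.22. The other littermates had received DT 15 or 30 days before, so allele and DT cannot be told apart here. The difference of -0.40 was not called in this comparison (95% confidence interval -0.77 to -0.03, limma adjusted p = 1). None of the 7 receptors was called in it (1, Csf2ra, at an unadjusted p under 0.05), nor was any other gene (0% of all genes, 769 of them at an unadjusted p under 0.05). Against the untreated KC-DTR em-KCs alone, the Csf2ra difference was 0.28 at day 15 and 0.23 at day 30.

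WT em-KCs and the em-KCs of the KC-DTR colony differed in many genes, with 17.9% of all genes called in the fit of the 7 conditions. None of the 7 receptors was called in that fit (2, Csf2ra and Csf2rb2, at an unadjusted p under 0.05). Csf2ra had 9.71, 9.28 and 9.71 in WT em-KCs, against 8.79 to 9.43 in the 8 colony arrays, a difference of 0.47 (s.e. 0.16, limma adjusted p = 0.054). Csf2rb2 had 8.88, 9.28 and 9.62 in WT em-KCs, against 8.59 to 9.29 in the colony arrays, a difference of 0.46 (s.e. 0.19, limma adjusted p = 0.0977). Both genes overlapped between the groups and were near the threshold, and under the alternatives tried the adjusted p ran from 0.00745 to 0.191 for Csf2ra and from 0.028 to 0.416 for Csf2rb2. In the fit of 5 groups, chosen after seeing the data, both were called as higher in WT em-KCs (limma adjusted p = 0.0418 and 0.0368). The same WT arrays were the base for the lower Csf2ra and Csf2rb2 of day 30 replicates 3 to 5. Csf1r had a difference of 0.00 (95% confidence interval -0.23 to 0.23). Kit had 8.34, 6.06 and 7.13 in the 3 WT em-KC arrays, so these replicates lay further apart than all 8 colony arrays at 7.09 to 7.90. Without WT replicate 2 its difference from the colony was 0.30, and without WT replicate 1 it was -0.83 (limma adjusted p = 0.0355).

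The ligands of the receptors were measured in the same KCs, and 1 of 8 was called at each day. Kitl, which encodes stem cell factor, the ligand of Kit, had 4.87, 4.55 and 5.29 in day 15 mo-KCs and 5.61, 5.25, 5.83, 4.99 and 5.45 in day 30 mo-KCs, against 5.69, 6.20 and 6.46 as the lowest, median and highest of em-KCs. All day 15 arrays and 4 of 5 day 30 arrays lay below every em-KC array. In these mo-KC arrays Kitl was dim, below the array medians of 5.72 to 5.81, and in em-KCs it was near or above them. Kitl fell by 1.21 at day 15 (s.e. 0.19, limma adjusted p = 0.00112) and by 0.70 at day 30 (s.e. 0.16, limma adjusted p = 0.0329), while Kit itself was not called. The day 15 call held in all 25 alternatives, and the day 30 call in 11 of 28. Over all 28, run with limma or the methods' t-test, differences were -0.82 to -0.37 and adjusted p 0.00654 to 0.503. Within the 6 arrays the day 30 Kitl difference was -0.37 and within the 13 it was -0.82. The WT em-KCs had 5.73, 5.76 and 5.88, low in the em-KC range. The main KC ligand gene Csf1 had 6.67, 6.67 and 6.78 in day 15 mo-KCs and 6.52, 6.62, 6.62, 6.19 and 6.98 in day 30 mo-KCs, against 6.36, 6.64 and 7.05 as the lowest, median and highest of em-KCs, with differences of 0.03 and -0.09. Il34, which encodes the other ligand of Csf1r, differed by -0.28 at day 15 and by -0.09 at day 30 (limma adjusted p = 0.67 and 0.753). Csf2, Il3 and Il5, the genes of GM-CSF and of interleukins 3 and 5, were dim in all samples, at 2.61 to 4.22.

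Of 30 related growth factor and cytokine receptors measured, 0 rose and 1 fell at each day. Epor, the erythropoietin receptor gene, had 5.98, 5.87, 5.99, 6.03 and 5.96 in day 30 mo-KCs, against 6.10, 6.50 and 6.99 as the lowest, median and highest of em-KCs, without overlap. It fell by 0.55 at day 30 (s.e. 0.12, limma adjusted p = 0.0302), a call that held in 17 of 28 alternatives. Epor had adjusted p of 0.0113 to 0.395 over all 28 alternatives, run with limma or the methods' t-test. Its difference at day 15 was also -0.55, with adjusted p = 0.122 and values of 5.90, 6.27 and 5.71. Fgfr1, a fibroblast growth factor receptor gene, had 6.20, 6.37 and 6.20 in day 15 mo-KCs and 6.65, 6.69, 6.78, 6.56 and 6.57 in day 30 mo-KCs, against 6.54, 6.99 and 7.39 as the lowest, median and highest of em-KCs. It fell by 0.71 at day 15 (s.e. 0.13, limma adjusted p = 0.00944), where all 3 arrays lay below em-KCs and 21 of 25 alternatives kept the call, and differed by -0.32 at day 30 (limma adjusted p = 0.218). Il3ra and Il5ra, the chains that join the beta chains to bind interleukins 3 and 5, differed by -0.01 and -0.07 at day 15 and by -0.14 and -0.01 at day 30.

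None of 37 genes of signal transduction and feedback downstream of the receptors (kinases, STATs, SOCS and other regulators) was called at either day, with 3 at an unadjusted p under 0.05 at day 15 and 4 at day 30. The 95% confidence interval lay within 1.5-fold for 34 of the 37 at day 15 and for 37 of 37 at day 30. Of 13 transcription factors that act on receptor genes of this kind, 0 were called at either day, with 2 and 1 at an unadjusted p under 0.05. Spi1, the gene of PU.1, had 10.99 to 11.25 in day 15 mo-KCs and 10.96 to 11.31 in day 30 mo-KCs, against 10.89 to 11.54 in em-KCs, and differences of -0.12 and -0.07. Meis1, a homeobox factor of progenitor cells, fell by 0.51 when both days were averaged (limma adjusted p = 0.0296). For single days it was called in 4 of 25 alternatives at day 15 and in 3 of 28 at day 30. Its values were 6.43, 6.47 and 6.25 at day 15 and 6.64, 6.53, 6.14, 6.42 and 6.54 at day 30, against 6.33, 7.01 and 7.30 as the lowest, median and highest of em-KCs, so the groups overlapped in part. The WT em-KCs had 7.03, 6.45 and 6.33. The median difference of the ligands, related receptors, signalling genes and transcription factors was -0.01, -0.01, 0.05 and -0.05 at day 15 and -0.06, -0.15, -0.11 and -0.06 at day 30, beside -0.23 for the 7 receptors at day 30 and -0.02 for all genes.

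**Figure D4:**
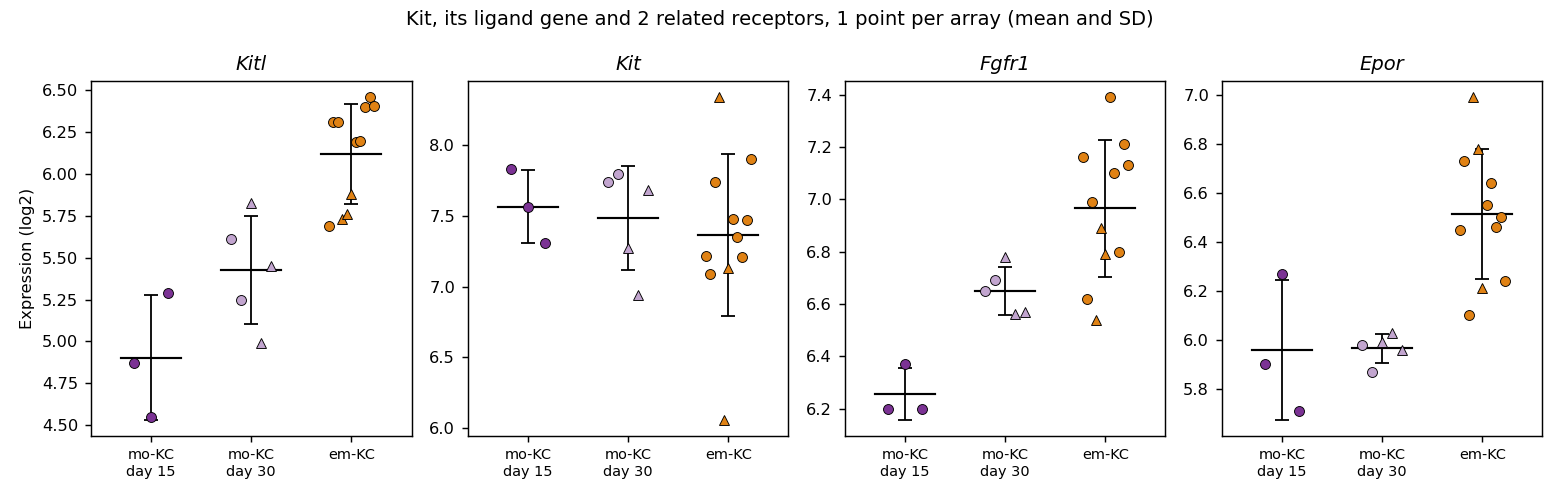
Expression (vertical axes, log2) of Kitl, Kit, Fgfr1 and Epor in day 15 mo-KCs (n = 3), day 30 mo-KCs (n = 5) and em-KCs (n = 11), with 1 point per array and the mean and SD (triangles: the 6 arrays with Y-linked genes below Xist). Kitl lies below em-KCs in all 3 day 15 arrays and in 4 of 5 day 30 arrays, Fgfr1 in the day 15 arrays and Epor in the day 30 arrays, while Kit overlaps.

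The monocyte and KC markers that separate the groups were called while no receptor was. Ccr2, the chemokine receptor of monocytes, rose by 2.90 at day 15 (limma adjusted p = 2.4e-08) and had a difference of 0.61 at day 30 (limma adjusted p = 0.125). Cx3cr1, another monocyte receptor, rose by 2.43 and 1.16 (limma adjusted p = 2.8e-06 and 0.00383). Over the whole lists 2 of 8 monocyte markers rose at day 15 and 1 of 8 at day 30. The dendritic cell markers, read beside Flt3, gave 0 calls of 10 at either day (1 and 4 at an unadjusted p under 0.05), with list means of 6.04 to 6.14 at day 15 and 5.93 to 6.16 at day 30, against 5.98 to 6.24 in em-KCs.

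The genes whose levels ran most like those of each receptor over the 19 arrays were sought across all genes by Pearson correlation, given here as a description because arrays of a set share more than the receptor. For Csf1r they were Adgre5 (r = 0.97), an adhesion receptor gene, Ptprj (r = 0.96), a receptor phosphatase gene, and Cd68 (r = 0.93), a lysosomal macrophage gene. Within the 13 arrays r was 0.72, 0.63 and 0.52, and all 3 genes had their lowest value in the day 30 group, at 11.76, 10.99 and 12.02, against 12.23, 11.65 and 12.50 as the lowest of em-KCs. For Csf2rb2 they were Glmp, Themis2 and Tsc22d4 (r = 0.89, 0.89 and 0.88, and 0.43, 0.49 and 0.66 within the 13 arrays). For Csf2ra they were Tmc6, Atn1 and 2310022B05Rik (r = 0.91, 0.87 and 0.86, and 0.82, 0.63 and 0.56 within the 13 arrays). For Csf2rb they were Rnf103, Ifi30 and Dlat (r = 0.82, 0.81 and 0.79, and 0.64, 0.69 and 0.47 within the 13). For Csf3r they were Actn1, Maco1 and Ccpg1 (r = 0.86, 0.84 and 0.84, and 0.63, 0.55 and 0.37 within the 13). Flt3 was most like Aldh8a1, Tbx19 and Zp3 (r = 0.80, 0.78 and 0.78, and 0.82, 0.74 and 0.68 within the 13). Kit was most like Fez2, Elk3 and Ago1 (r = 0.83, 0.81 and 0.81, and 0.46, 0.61 and 0.86 within the 13). Among the receptors themselves the highest correlations were those of Csf1r with Csf2rb2 and with Csf3r (r = 0.70 each over 19 arrays), and within the 13 arrays they were -0.13 and 0.09. Csf2rb and Csf2rb2, the neighbouring and similar genes, had r = 0.59 over 19 arrays and 0.78 within the 13. The value within the 13 leans on 1 array, the untreated littermate, at 10.27 and 9.29. The rest of the 13 lay at 9.51 to 9.83 for Csf2rb and at 8.59 to 8.89 for Csf2rb2.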

How the data were processed

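The authors deposited log2 expression values per probeset, the output of RMA (Robust Multi-array Average) and quantile normalization, 1 array per sample. No source used here gives software versions. Of 35556 probesets, 21789 had 1 gene symbol in the platform annotation and were kept, 1621 had several and 12146 had none. The probeset with the highest mean stood for each of 19938 genes, and each receptor had a single probeset. No 2 of the 19 arrays held identical values. Groups were compared with limma 3.58.1 in R 4.3.3 (lmFit, eBayes), two-sided, calling genes under 0.05 after Benjamini-Hochberg adjustment over the 19938. Em-KC conditions were compared in a fit of 7 conditions. The fit was checked on simulated data. P-values set a difference against the spread between samples of a group, and precision is limited by how few arrays a group has. In the fit of 3 classes that spread also holds differences between the 2 array sets. The receptors and gene lists were chosen with earlier results of these data known. Genes named beside the receptors are up to 4 called genes per list, the 3 most alike to each receptor, and markers that moved with a receptor, and others were chosen after their values were seen. Some listed genes are not reported here. Alternatives covered the em-KC arrays, probeset, dim genes, normalization, variance model, the methods' t-test, replicate number, array set and leaving out each array.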

Additional observations from a re-analysis of the deposited data

Results flagged for a closer look

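Csf2ra in day 30 mo-KC replicate 5 was 8.36, while the other 4 arrays of the group lay at 9.19 to 9.35, and the gap was 0.840 of the range of the group, above the limit of 0.710 for 5 samples. This was 1 of 11 genes examined in that way (the 7 receptors, Kitl, Epor, Fgfr1 and Meis1), and about 1 in 20 groups exceeds the limit by chance. The same array also had the lowest Csf1r (11.95), Csf2rb (9.04) and Csf2rb2 (7.70) of all 19 arrays.

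The day 30 difference from em-KCs was different in the 2 sets of arrays for Csf2rb2 (-1.16) and Csf1r (-0.44), by the interaction in limma chosen after seeing the data, with adjusted p = 0.0144 and 0.0381. The causes were not tested.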

How the results depend on the processing

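Over all alternatives, no receptor was called at day 15, with both days averaged, between the days or between untreated KC-DTR and littermate em-KCs in any fit, and at day 30 none was called in 26 of 28. The exceptions were the 6 arrays with low Y-linked genes, with 1 call (Csf2rb2), and leaving out 1 array, with 0 to 2 calls. Day 15 has no array among the 6, so nothing was computed for it there. The count for WT minus colony em-KCs, 0, became 1 with a filter on dim genes or with the variance trend, 2 with repeated quantile normalization, and 0 to 2 when 1 array was left out. In the fit of 5 groups, chosen after seeing the data, Csf2ra and Csf2rb2 were called in this comparison. The single call within the 6 arrays became 0 to 1, and the 2 interaction calls 0 to 3, when 1 array was left out.

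The replicate numbers did not pair the samples, since 2 of 18 same-numbered pairs had correlated deviations over 0.1 (range -0.12 to 0.15). With the replicate block 0 receptors were called at day 15, at day 30 and between the days, and 2 (Csf2ra and Csf2rb2) in WT minus colony em-KCs.

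Differences that turned in sign were of uncalled values. Csf1r at day 30 was 0.014 within the 13 arrays, and in WT minus colony em-KCs it was -0.035 with centred arrays. Csf2ra at day 15 was 0.035 with colony em-KCs only and within the 13 arrays, and 0.284 against untreated KC-DTR em-KCs. Csf2ra at day 30 was 0.059 with the replicate block, 0.234 against untreated KC-DTR em-KCs and 0.229 within the 13 arrays. Csf2rb and Csf2rb2 at day 15 were both 0.054 against untreated KC-DTR em-KCs. Leaving out 1 array gave -0.210 to 0.037 for Csf2ra at day 30, -0.005 to 0.260 for Kit at day 30, -0.046 to 0.046 for Csf2rb and -0.062 to 0.008 for Csf3r at day 15, and -0.016 to 0.017 for Csf1r and -0.835 to 0.302 for Kit in WT minus colony em-KCs. The causes were not tested. Flt3 and most ligands gave too little signal for small differences to be read.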
